A study of Mus musculus with 11 samples.

Results

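Imprinted genes are transcribed from only the maternal or only the paternal copy in at least some tissues. A list of 43 of them was followed through meiosis and into haploid cells of the mouse testis, with and without the loss of 1 copy of Dnmt3L. Of the 43, 17 were classed as paternally expressed, 21 as maternally expressed, and 5 (Grb10, Gnas, Inpp5f, Ddc and L3mbtl1) as having an imprint that depends on the isoform or the tissue. The classes were not derived from these arrays, and genes of the other classes may also be imprinted in some tissues only. Every probe whose gene symbol in the platform annotation, current or older, was on the list was taken, which gave 95 of 46643 probes for 39 of 19390 genes. No probe was named for H19, Meg3, Slc22a3 and L3mbtl1, so those 4 were not analysed here.

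Pachytene spermatocytes and round spermatids were separated by centrifugal elutriation from testes of C57Bl/6 males aged 8 to 12 weeks, and RNA was hybridised to Illumina mouse whole-genome BeadChips. There were 3 arrays of wild type spermatocytes, 2 of Dnmt3L heterozygous spermatocytes, 3 of wild type round spermatids and 3 of heterozygous round spermatids. Heterozygous males carried 1 Dnmt3L allele disrupted in its coding sequence by a LacZ insertion and 1 intact allele, and no further treatment was given to any group. Each preparation pooled cells of 10 mice, so an array carries no information on single animals or on which parental copy was transcribed. The spermatocyte and spermatid preparations were hybridised on separate BeadChips according to the methods, so BeadChip and cell type cannot be told apart. The cell fractions had passed a purity minimum in cell counts but were not pure.

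Imprints are DNA methylation marks set in the germ line and kept through fertilisation. They are erased in primordial germ cells and set again, in the male before birth at a small number of control regions, those of H19-Igf2, Dlk1-Meg3 and Rasgrf1, and in the oocyte at most others. DNMT3L, a catalytically inactive partner of the de novo methyltransferases DNMT3A and DNMT3B, is required for this step in both sexes. Adult spermatocytes and spermatids therefore carry imprints of paternal type on all copies, and in many somatic tissues paternally expressed growth genes such as Igf2 are opposed by maternally expressed growth-restraining genes such as Cdkn1c, Phlda2 and Igf2r.

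Promoter sequence of 3 genes is shown because Rasgrf1 and Igf2 belong to paternally methylated loci and had the largest increases between the wild type fractions, while Grb10 is transcribed from different promoters in different tissues. Each window runs from 250 bases before to 50 bases after a RefSeq start site of assembly GRCm38.p6 and is printed 5′ to 3′ on the strand of the gene, with every CG dinucleotide, the target of DNA methylation, in capitals.
Rasgrf1 (chr9:89909525-89909824, plus strand): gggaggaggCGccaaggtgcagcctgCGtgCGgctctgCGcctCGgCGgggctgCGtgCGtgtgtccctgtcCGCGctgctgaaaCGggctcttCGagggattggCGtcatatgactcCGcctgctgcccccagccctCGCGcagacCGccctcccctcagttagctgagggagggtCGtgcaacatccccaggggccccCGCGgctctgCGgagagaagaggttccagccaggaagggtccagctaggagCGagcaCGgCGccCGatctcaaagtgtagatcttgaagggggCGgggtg
Igf2 (chr7:142658755-142659054, minus strand): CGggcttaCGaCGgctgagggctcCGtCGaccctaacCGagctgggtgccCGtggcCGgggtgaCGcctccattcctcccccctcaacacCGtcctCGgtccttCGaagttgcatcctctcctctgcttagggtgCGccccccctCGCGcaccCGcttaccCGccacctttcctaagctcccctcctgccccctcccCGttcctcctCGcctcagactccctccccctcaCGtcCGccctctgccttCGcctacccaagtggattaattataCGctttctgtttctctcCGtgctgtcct
Grb10 (chr11:12037371-12037670, minus strand): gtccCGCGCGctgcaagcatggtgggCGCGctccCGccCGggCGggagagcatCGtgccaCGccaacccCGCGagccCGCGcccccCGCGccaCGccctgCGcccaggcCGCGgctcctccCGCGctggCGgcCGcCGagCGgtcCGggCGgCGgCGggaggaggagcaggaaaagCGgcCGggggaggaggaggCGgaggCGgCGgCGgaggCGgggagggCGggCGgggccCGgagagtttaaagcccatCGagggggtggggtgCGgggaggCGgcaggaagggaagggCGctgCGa
Grb10 (chr11:12027922-12028221, minus strand): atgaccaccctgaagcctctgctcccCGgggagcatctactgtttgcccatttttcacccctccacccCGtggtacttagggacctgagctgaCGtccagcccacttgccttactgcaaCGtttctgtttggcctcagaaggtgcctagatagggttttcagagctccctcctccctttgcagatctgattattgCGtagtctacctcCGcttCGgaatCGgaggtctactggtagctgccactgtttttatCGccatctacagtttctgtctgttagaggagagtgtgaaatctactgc
The Rasgrf1 window holds 26 CG dinucleotides, a number reached by 16.9% of all 32851 RefSeq windows of this length. The Igf2 window, the one richest in CG among those of this gene, holds 24, reached by 20.0% of all windows. The CG-rich Grb10 window holds 45, reached by 1.93% of windows, and the other Grb10 window holds 9, reached by 45.8%. Over the 53 windows found for 34 of the 43 genes the median was 14 CG dinucleotides, against 7 over all windows. The windows were placed by start site and not by the control regions named above. Methylation was not measured in these samples, and the array does not tell which start site a transcript came from.

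Values below are levels of a probe on the log2 scale as the authors deposited it, which ran from 6.40 to 13.99 over all probes with a median of 6.87. The scale comes from a variance-stabilising transformation that flattens near the background, so differences of dim probes are understated, and levels are compared only within a probe. Before testing, the dimmest 40% of probes by their mean on the 11 arrays, those with a mean below 6.80, were left out. This left 53 of the 95 probes (55.8%, against 60% of all probes) and 30 of the 39 genes with a probe (76.9%, against 73.1% of all genes). A gene stands by its brightest probe, and it is called where the limma test gave a Benjamini-Hochberg adjusted p under 0.05 over all kept probes and 4 contrasts. The 9 genes whose probes were all left out were the paternally expressed Peg10, Magel2, Sgce and Slc38a4 and the maternally expressed Calcr, Copg2, Zim1, Slc22a2 and Kcnk9. Their probes lay between 6.55 and 6.92 on every array. The highest group mean was 6.80, so all their group means lay below the median of all probes, 6.87. Mest and Ascl2 stood just inside the limit, with means of 6.82 and 6.82, and Slc38a4 and Slc22a2 just outside, at 6.77 and 6.75. In all, 6 of the tested genes lay within 0.1 of the limit.

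The spermatid fractions carried marks of their stage. Of 12 tested round spermatid markers 10 were higher in spermatids of wild type males and 7 in those of heterozygous males. Their list means were 9.72 to 10.74 on the spermatocyte arrays and 11.93 to 12.51 on the spermatid arrays. None of 5 tested pachytene markers was called, with list means of 10.23 to 10.43 on the spermatocyte arrays and 9.36 to 10.16 on the spermatid arrays. Markers of other cells moved too. Of 8 tested spermatogonium markers Kit, Sohlh1 and Uchl1 were higher and Id4 lower in spermatids of wild type males (50% called), and Sohlh1 alone was called in heterozygous males, with list means of 7.53 to 7.69 on the spermatocyte arrays and 7.71 to 8.13 on the spermatid arrays. All 7 tested macrophage and blood markers were higher in spermatids of wild type males and 5 of 7 in those of heterozygous males, with list means of 6.89 to 7.14 on the 5 spermatocyte arrays and 8.59 to 10.36 on the 6 spermatid arrays. Of 5 tested peritubular markers 3 and 2 were higher, with list means of 7.68 to 7.87 and 8.90 to 9.43. Of 8 endothelium markers Egfl7 alone was called between cell types, higher in wild type spermatids. None of 15 Sertoli markers was called, and 11 in wild type and 13 in heterozygous males had a positive change (medians 0.23 and 0.16). Of 9 Leydig markers only Star was called, lower in spermatids of both genotypes, and their list means overlapped, at 7.40 to 8.52 and 7.60 to 9.31. Star went against most of its list, since 7 of the 9 had a positive change in each genotype. The median Leydig change was 0.52 in wild type and 0.39 in heterozygous males, against -0.03 and -0.02 over all genes. Spermatid array 2 of each genotype stood nearer to the spermatocyte arrays than the others did, with mean correlations of 0.936 and 0.945 over kept probes, against 0.852 to 0.891 for the other 4 spermatid arrays.

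**Figure D1:**
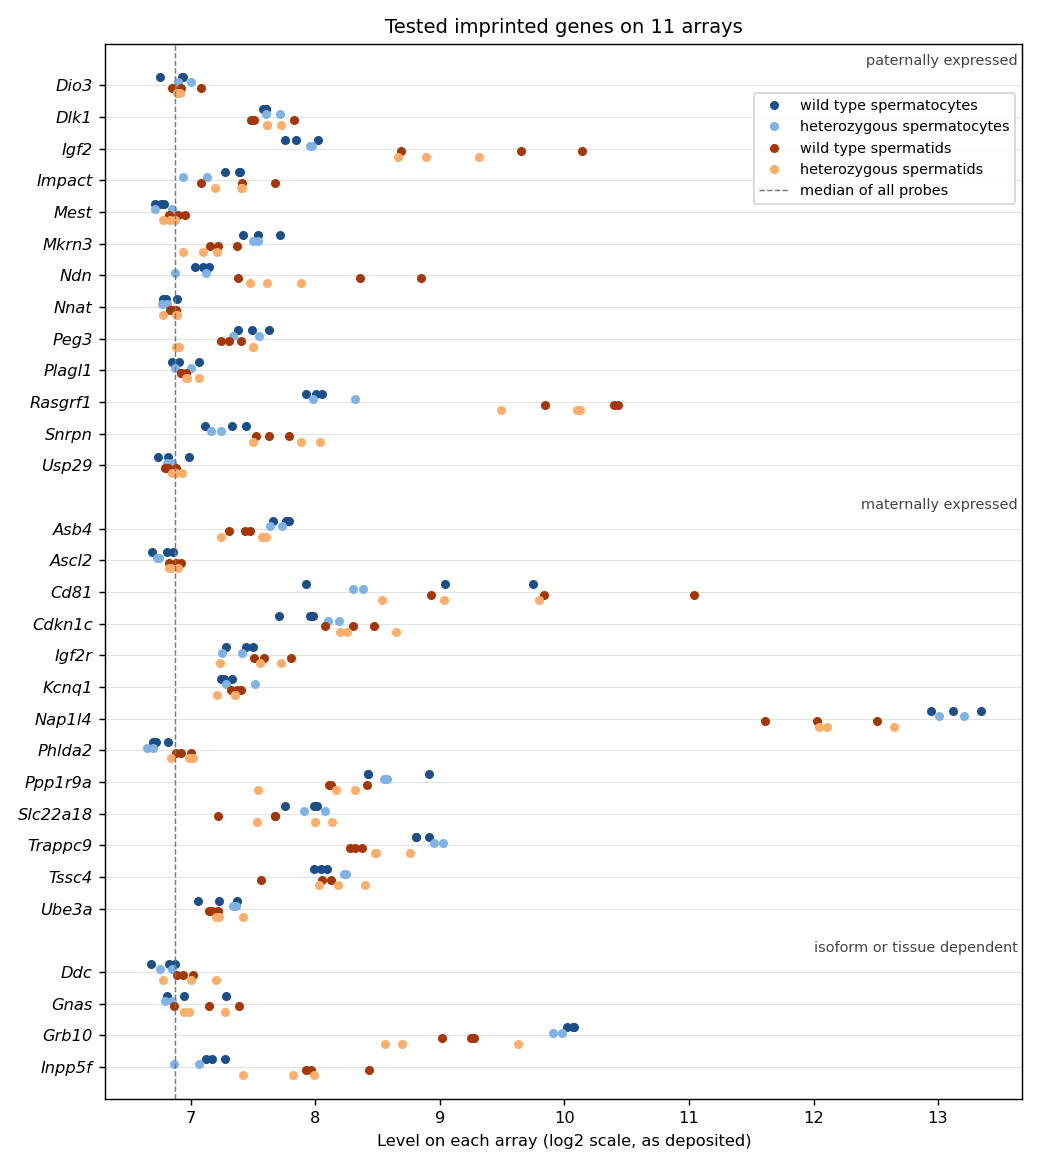
Level of each tested imprinted gene on each of the 11 arrays (log2 scale, x axis), 1 point per array, coloured by group, with genes in rows by parental class; the dashed line is the median of all probes, 6.87. Most genes keep to a narrow band near their own level in all groups. Rasgrf1, Igf2, Nap1l4, Grb10, Inpp5f, Ndn and Trappc9 are among those that separate all spermatid from all spermatocyte arrays. In each genotype 17 of 30 genes do not overlap between the cell types (56.7%, against 54.7% of all genes in wild type and 54.8% in heterozygous males).

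Between wild type spermatocytes and round spermatids 6 of the 30 tested genes were called, 3 higher in spermatids (Rasgrf1, Igf2 and Inpp5f) and 3 lower (Nap1l4, Grb10 and Trappc9). This was 20.0% of them, against 31.1% of all 14181 genes tested, of which 14.2% were higher and 16.9% lower. A further 24 were not called, and 13 of the 30 had an unadjusted p under 0.05. The median change was 0.06 over the 30 and -0.03 over all genes. By class, 2 of 13 paternally expressed genes were higher and none lower (median 0.04), none of 13 maternally expressed genes was higher and 2 were lower (median -0.04), and 1 of 4 genes with a variable imprint moved each way. The arrays of the groups did not overlap for 17 of the 30 genes (56.7%, against 54.7% of all genes). The share of calls among the imprinted genes was below that of all genes, and the share without overlap was close to it.

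Rasgrf1, a guanine nucleotide exchange factor for Ras that is best known from neurons, had the largest increase. Its level was 8.01, 7.93 and 8.05 in wild type spermatocytes and 10.43, 9.85 and 10.40 in wild type spermatids. The heterozygous values were 8.32 and 7.98 in spermatocytes and 10.10, 9.49 and 10.12 in spermatids. All 6 spermatid arrays lay above all 5 spermatocyte arrays. The log2 change was 2.23 with a standard error of 0.20 in wild type males (adjusted p = 0.000705) and 1.76 with a standard error of 0.23 in heterozygous males (adjusted p = 0.00264). It was called under all 11 alternative settings and without any single array. The call rests on 1 of 3 probes, since the other 2 lay between 6.54 and 6.80 on every array and were left out, and averaging the 3 lowered the changes to 0.75 and 0.58.

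Igf2, the foetal insulin-like growth factor that is the classic paternally expressed gene, was measured by 1 kept probe. Its level was 8.03, 7.76 and 7.85 in wild type spermatocytes and 9.65, 8.69 and 10.14 in wild type spermatids. In heterozygous males it was 7.96 and 7.97 in spermatocytes and 8.66, 8.89 and 9.31 in spermatids. Every spermatid array lay above every spermatocyte array, and the wild type spermatid arrays spread from 8.69 to 10.14. Igf2 rose by 1.62 with a standard error of 0.32 in wild type males (adjusted p = 0.0138). In heterozygous males the change was 0.99 with a standard error of 0.36, and the adjusted p was 0.128. The wild type call held under all 11 alternative settings and was lost without wild type spermatocyte array 2 (adjusted p = 0.0505) or wild type spermatid array 1 (0.0511). Without wild type spermatid array 2 the heterozygous change was called as well (adjusted p = 0.0174).

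Inpp5f, a phosphoinositide phosphatase with an imprinted variant in the brain, was the other gene that rose. Its level was 7.17, 7.12 and 7.28 in wild type spermatocytes and 8.44, 7.96 and 7.93 in wild type spermatids. The heterozygous arrays gave 7.07 and 6.87 in spermatocytes and 7.42, 7.82 and 7.99 in spermatids. The groups did not overlap in either genotype. The increase was 0.92 with a standard error of 0.17 in wild type males (adjusted p = 0.0104), called under all 11 alternative settings and without any single array. It was 0.78 with a standard error of 0.19 in heterozygous males (adjusted p = 0.031), a call that was lost when any single spermatocyte array, or heterozygous spermatid array 2 or 3, was left out, with adjusted p up to 0.179, and under 5 of the 11 alternative settings. The other kept Inpp5f probe, a dimmer one, changed by 0.10 in wild type males (adjusted p = 0.471), and averaging all Inpp5f probes lowered the changes to 0.24 (adjusted p = 0.029) and 0.17 (0.147).

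Nap1l4, a nucleosome assembly protein and histone chaperone, had the largest decrease in wild type males. Its level was 12.94, 13.34 and 13.12 in wild type spermatocytes and 12.03, 12.51 and 11.61 in wild type spermatids. In heterozygous males it was 13.21 and 13.01 in spermatocytes and 12.05, 12.64 and 12.11 in spermatids. All spermatid arrays lay below all spermatocyte arrays. Nap1l4 fell by 1.08 with a standard error of 0.24 in wild type males (adjusted p = 0.0199), and its other kept probe fell by 0.32 (adjusted p = 0.0169). With both probes averaged it fell by 0.70 (adjusted p = 0.00699) in wild type males and by 0.54 (0.0331) in heterozygous males. The wild type call was lost without wild type spermatocyte array 2 or 3 or wild type spermatid array 1, with adjusted p of up to 0.0717. In heterozygous males the change was -0.84 with a standard error of 0.26 (adjusted p = 0.078), and it was called without wild type spermatid array 2 (adjusted p = 0.0368) or without heterozygous spermatid array 2 (0.0271).

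Grb10, an adaptor that restrains signalling of the insulin and IGF receptors, is expressed from the maternal copy in most tissues and from the paternal copy in neurons. Its level was 10.02, 10.07 and 10.08 in wild type spermatocytes and 9.02, 9.27 and 9.25 in wild type spermatids. Heterozygous values were 9.98 and 9.91 in spermatocytes and 8.70, 9.63 and 8.56 in spermatids. The spermatid arrays lay below the spermatocyte arrays throughout, with heterozygous spermatid array 2 the closest to them. Grb10 fell by 0.87 with a standard error of 0.24 in wild type males (adjusted p = 0.0457) and by 0.98 with a standard error of 0.26 in heterozygous males (adjusted p = 0.0445). Both calls stood close to the threshold, and they were lost under 4 (wild type) and 5 (heterozygous) of the 11 alternative settings. The wild type call was lost without any single spermatocyte array, any single wild type spermatid array or heterozygous spermatid array 1, with adjusted p up to 0.142. The heterozygous call was lost without any single array other than heterozygous spermatid array 2, with adjusted p up to 0.185, and without that array the change was -1.32 (adjusted p = 0.000114). The other kept Grb10 probe, drawn from a different transcript record, changed by -0.06 in wild type males (adjusted p = 0.653), and with all Grb10 probes averaged the changes were -0.26 (0.0632) and -0.29 (0.0685).

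Trappc9, a subunit of the TRAPP II complex of vesicle trafficking, showed a smaller and tighter decrease. Its level was 8.91, 8.81 and 8.81 in wild type spermatocytes and 8.32, 8.38 and 8.28 in wild type spermatids. In heterozygous males it was 8.96 and 9.02 in spermatocytes and 8.49, 8.48 and 8.76 in spermatids. The groups did not overlap in any of the 4 contrasts. Trappc9 fell by 0.52 with a standard error of 0.08 in wild type males (adjusted p = 0.00533), a call that held under all 11 alternative settings and without any single array. It fell by 0.41 with a standard error of 0.09 in heterozygous males (adjusted p = 0.02), a call lost when heterozygous spermatid array 1 or 1 of the heterozygous spermatocyte arrays was left out, with adjusted p up to 0.118, and under 3 of the 11 alternative settings. Its 4 other kept probes were not called, and averaging all Trappc9 probes gave changes of -0.24 (adjusted p = 0.017) and -0.18 (0.0834).

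**Figure D2:**
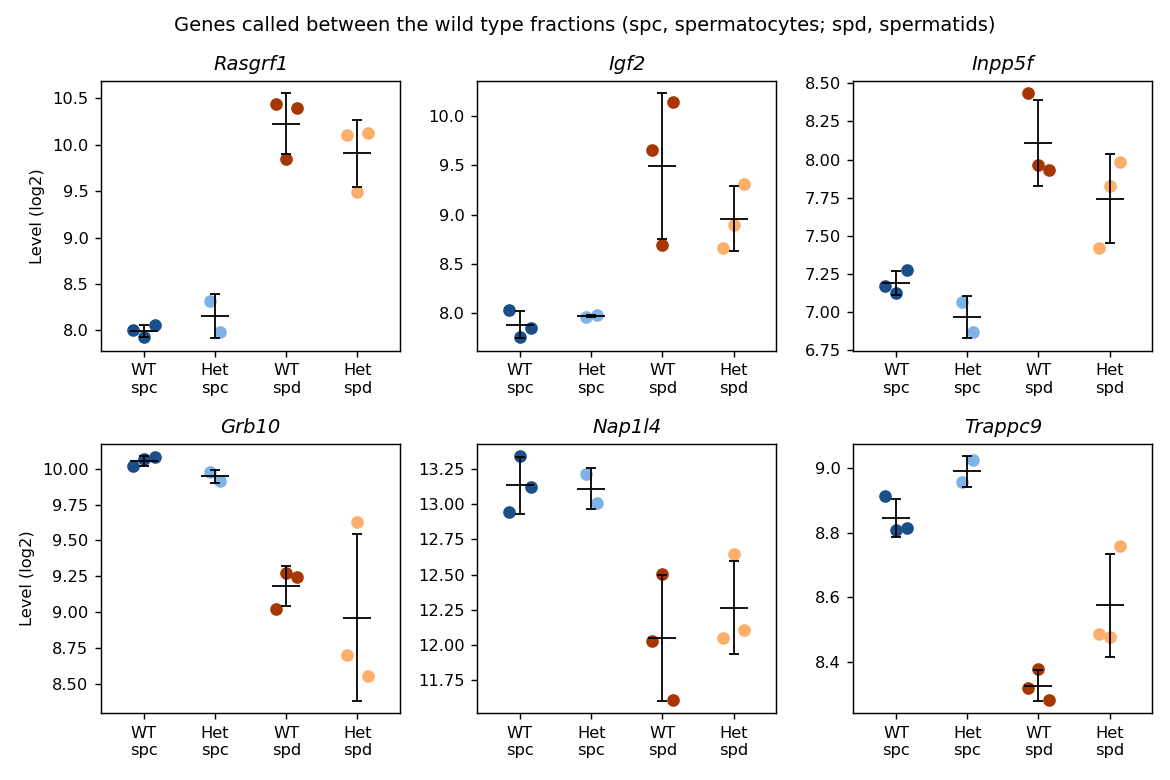
Level on each array (log2 scale, y axis, a separate range per panel) of the 6 imprinted genes called between wild type spermatocytes and wild type spermatids; points are arrays, and black bars are the group mean with its SD (n = 3, or 2 for heterozygous spermatocytes). The spermatid points lie above the spermatocyte points for Rasgrf1, Igf2 and Inpp5f and below them for Grb10, Nap1l4 and Trappc9 in both genotypes.

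Between heterozygous spermatocytes and spermatids 7 of the 30 genes were called, 4 higher in spermatids (Rasgrf1, Inpp5f, Snrpn and Phlda2) and 3 lower (Grb10, Mkrn3 and Trappc9). This was 23.3%, against 21.5% of all genes, of which 10.5% were higher and 11% lower. The median change was 0.06 over the 30 and -0.02 over all genes, and 10 of the 30 had an unadjusted p under 0.05. The arrays did not overlap for 17 of 30 genes (56.7%, against 54.8%). Of 13 paternally expressed genes 2 were higher and 1 lower (median 0.06), and of 13 maternally expressed genes 1 was higher and 1 lower (median -0.07). The heterozygous and wild type comparisons share no array, and 25 of the 30 genes changed in the same direction in both genotypes (83.3%, against 84.2% of all genes). With only the 2 heterozygous groups in the fit, Rasgrf1 alone was called (3.33% of the 30, against 10.5% of all genes).

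The 3 genes called in heterozygous but not in wild type males changed in the same direction in both. Snrpn, which encodes a protein of spliceosomal small nuclear ribonucleoproteins, had levels of 7.24 and 7.17 in heterozygous spermatocytes and 7.88, 7.50 and 8.04 in heterozygous spermatids. In wild type males it was at 7.44, 7.12 and 7.34 in spermatocytes and 7.53, 7.63 and 7.79 in spermatids. Neither pair of groups overlapped. It rose by 0.60 with a standard error of 0.16 in heterozygous males (adjusted p = 0.0418) against a change of 0.35 with a standard error of 0.14 in wild type males (adjusted p = 0.182), and the 2 other kept probes were not called. Averaging all Snrpn probes gave 0.27 in heterozygous males (adjusted p = 0.0983), and the call was lost under 3 of the 11 alternative settings. It was also lost without any single array other than heterozygous spermatid array 2, with adjusted p up to 0.192.

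Mkrn3, a makorin RING finger protein of the Snrpn domain, had levels of 7.54 and 7.50 in heterozygous spermatocytes and 6.94, 7.21 and 7.10 in heterozygous spermatids. The wild type values were 7.55, 7.42 and 7.71 in spermatocytes and 7.22, 7.37 and 7.16 in spermatids. The spermatid arrays were the lower ones in both genotypes. It fell by 0.44 with a standard error of 0.11 in heterozygous males (adjusted p = 0.0326), and the wild type change was -0.31 with a standard error of 0.10 (adjusted p = 0.0766). The heterozygous call was lost without any 1 of 6 arrays (wild type spermatocyte 1, both heterozygous spermatocyte arrays, wild type spermatid 1, and heterozygous spermatids 1 and 3), with adjusted p up to 0.153, and under 2 of the 11 alternative settings.

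Phlda2, a small pleckstrin homology protein that restrains placental growth, lay near the background of the array. Its levels were 6.65 and 6.70 in heterozygous spermatocytes and 6.84, 6.99 and 7.02 in heterozygous spermatids, without overlap. In wild type males they were 6.70, 6.82 and 6.73 in spermatocytes and 6.93, 7.01 and 6.88 in spermatids. It rose by 0.28 with a standard error of 0.07 in heterozygous males (adjusted p = 0.0434), against a change of 0.19 with a standard error of 0.07 in wild type males (adjusted p = 0.114). The heterozygous call was lost without any single array other than wild type spermatid array 2 or heterozygous spermatid array 1, with adjusted p up to 0.204, and under 3 of the 9 alternative settings that tested it.

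**Figure D3:**
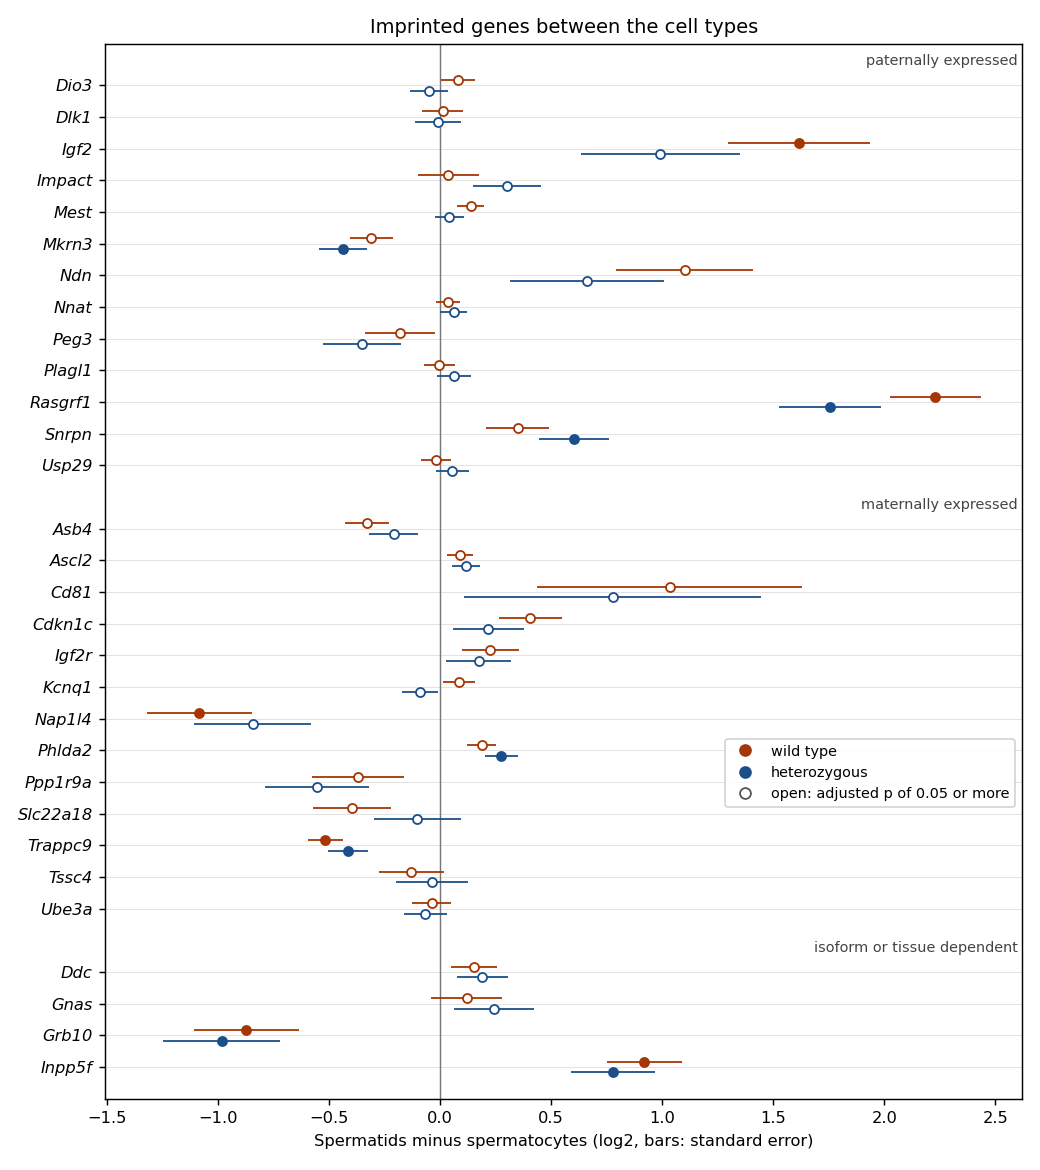
Change from spermatocytes to spermatids for the 30 tested imprinted genes (spermatids minus spermatocytes, log2 scale, x axis) in wild type and heterozygous males; bars are standard errors of the limma fit and filled points have an adjusted p under 0.05. Rasgrf1 stands farthest to the right at 2.23 and 1.76, Nap1l4 and Grb10 farthest to the left, and the largest error bars belong to Cd81.

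The other members of the paternally methylated loci were not called. Dlk1, a transmembrane relative of the Notch ligands, was at 7.60, 7.61 and 7.58 in wild type spermatocytes, 7.61 and 7.72 in heterozygous spermatocytes, 7.48, 7.51 and 7.83 in wild type spermatids and 7.62, 7.61 and 7.72 in heterozygous spermatids. All groups overlapped by this probe, the brighter of 2. The changes were 0.01 (standard error 0.09, adjusted p = 0.979) and -0.01 (0.10, 0.981) in wild type and heterozygous males. A second, dimmer Dlk1 probe was at 6.93, 6.99 and 7.06 in wild type spermatocytes and 7.34, 7.14 and 7.62 in wild type spermatids, without overlap, a change of 0.37 (standard error 0.15, unadjusted p = 0.0389, adjusted p = 0.19). In heterozygous males it changed by 0.18 (adjusted p = 0.671) with overlap. Dio3, the deiodinase that inactivates thyroid hormone, was at 6.93, 6.94 and 6.75 in wild type spermatocytes, 6.90 and 7.01 in heterozygous spermatocytes, 7.09, 6.85 and 6.93 in wild type spermatids and 6.89, 6.89 and 6.91 in heterozygous spermatids. Its arrays also overlapped in every comparison, and the changes were 0.08 (standard error 0.08, adjusted p = 0.673) and -0.05 (0.09, 0.84).

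Of the remaining paternally expressed genes Ndn had the largest change. Ndn, a MAGE family protein known from postmitotic neurons, was at 7.14, 7.10 and 7.04 in wild type spermatocytes and 8.36, 7.38 and 8.85 in wild type spermatids. In heterozygous males it was at 7.13 and 6.88 in spermatocytes and 7.48, 7.62 and 7.89 in spermatids. The spermatid arrays were higher without overlap in both genotypes, but the changes of 1.10 (standard error 0.31, adjusted p = 0.0528) and 0.66 (0.35, 0.326) were not called. Without both spermatid arrays numbered 2 they were 1.51 (adjusted p = 0.000887) and 0.68 (0.0471). The zinc finger gene Peg3, its divergently transcribed neighbour Usp29, the GCN2 regulator Impact, the hydrolase family gene Mest, the proteolipid gene Nnat and the zinc finger gene Plagl1 were not called in either genotype, with changes between -0.35 for Peg3 and 0.30 for Impact, both in heterozygous males. Mest, Nnat, Plagl1 and Usp29 stayed between 6.71 and 7.07 on all 11 arrays. A second kept Impact probe was called in wild type males (log2 change 0.25, adjusted p = 0.0415).

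Among the maternally expressed genes, those of the Kcnq1 domain on chromosome 7 did not change in 1 direction. Beside Nap1l4 and Phlda2, Cdkn1c, an inhibitor of cyclin-dependent kinases, changed by 0.40 in wild type males (standard error 0.14, adjusted p = 0.116). The organic cation transporter-like Slc22a18 changed by -0.40 (standard error 0.18, adjusted p = 0.228), although its second kept probe was called with a change of -0.20 (adjusted p = 0.0416). The potassium channel gene Kcnq1, the trophoblast transcription factor gene Ascl2 and Tssc4 changed by 0.08, 0.09 and -0.13 in wild type males and were not called. Ascl2 stayed between 6.69 and 6.92. Elsewhere, Asb4, a SOCS box protein, changed by -0.33 (adjusted p = 0.0668), Ppp1r9a, the actin-binding neurabin, by -0.37 (0.377), Igf2r, the receptor that clears IGF2, by 0.23 (0.386) and the ubiquitin ligase gene Ube3a by -0.04 (0.895) in wild type males. None of these was called in heterozygous males. Gnas, the stimulatory G protein alpha subunit, and Ddc, which makes dopamine and serotonin, were not called by their brightest probes, and 1 of 3 dimmer Gnas probes was called in wild type males (0.23, adjusted p = 0.0453). Over the 15 genes with more than 1 kept probe, 4 of the 23 other probes were called in wild type males (2 higher and 2 lower, against 27% of all kept probes) and none in heterozygous males (17.8% of all kept probes).

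Igf2, Ndn and Cd81 varied most among wild type spermatid arrays, and the means of several marker lists varied with them. Cd81, a tetraspanin present on many somatic cells, was at 9.74, 9.04 and 7.92 in wild type spermatocytes, 8.31 and 8.38 in heterozygous spermatocytes, 9.84, 8.93 and 11.04 in wild type spermatids and 8.54, 9.79 and 9.03 in heterozygous spermatids. It spanned 7.92 to 9.74 within wild type spermatocytes alone, and the groups overlapped in wild type males. Its changes of 1.03 (standard error 0.60, adjusted p = 0.391) and 0.78 (0.67, 0.623) were not called. The macrophage and blood list, of which 7 of 12 genes were tested, had means of 9.91, 8.59 and 10.36 on the wild type spermatid arrays 1, 2 and 3, the order of Igf2, Ndn and Cd81 on the same arrays. The Sertoli, Leydig, peritubular, spermatogonium and round spermatid lists had the same order there, the round spermatid list at 12.26, 11.93 and 12.51, and the pachytene list the opposite one, at 9.77, 10.06 and 9.36, so the order was not particular to somatic markers. On the heterozygous spermatid arrays the list had means of 9.18, 9.29 and 9.14, and there Igf2 and Ndn were highest on array 3 and Cd81 on array 2. Among spermatocytes the list stayed between 6.89 and 7.14. Within wild type spermatocytes Cd81 was highest on array 1 and lowest on array 3. The Leydig list, of which 9 of 11 genes were tested, had means of 8.52, 7.86 and 7.40 on those arrays, and the Sertoli list 8.75, 8.21 and 7.60. On heterozygous spermatid array 2, where Cd81 was highest in its group, the Leydig list was also highest, at 8.71. Fewer cells of a type and less RNA per cell cannot be told apart in pooled fractions, and the part of somatic cells or of the stage of the germ cells in these 3 genes was not tested. Among wild type spermatids Rasgrf1 was likewise lowest on array 2, whereas Inpp5f was highest on array 1 and lowest on array 3.

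**Figure D4:**
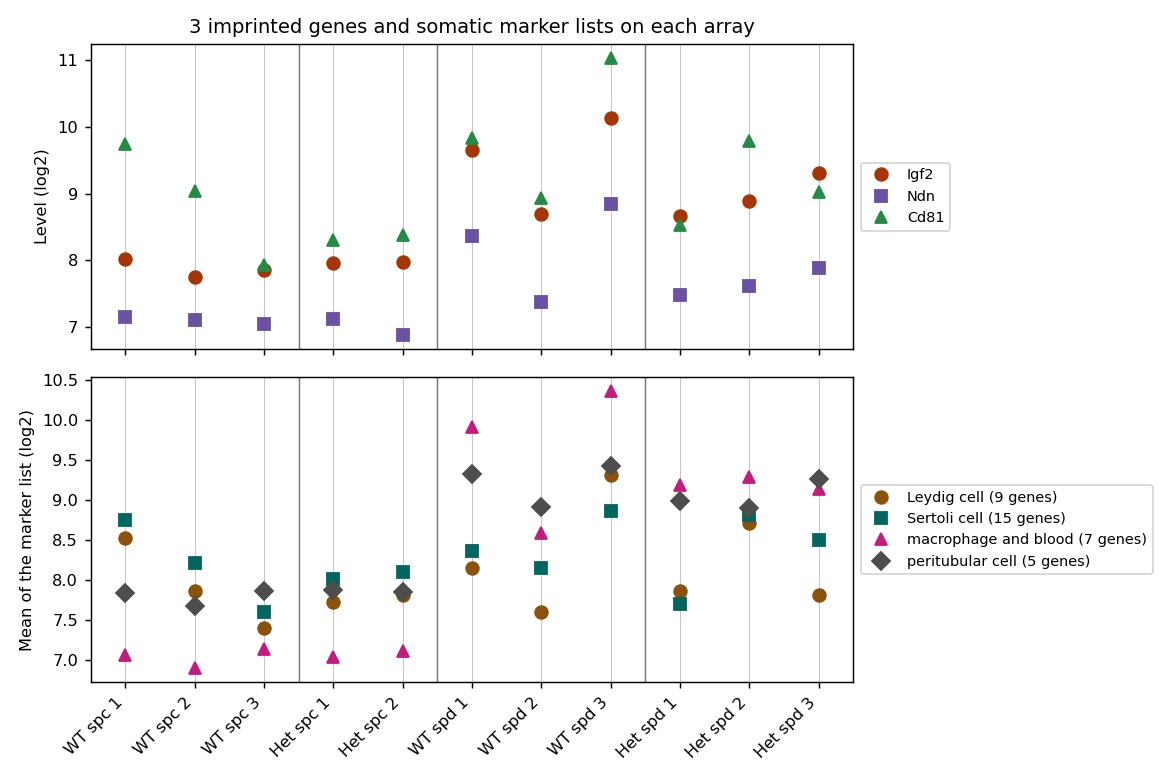
Upper panel, level of Igf2, Ndn and Cd81 on each array (log2 scale, y axis); lower panel, mean level of the tested genes of 4 somatic marker lists on the same arrays (spc, spermatocytes; spd, spermatids; vertical lines divide the groups). On wild type spermatid arrays all 3 genes and the macrophage list are highest on array 3 and lowest on array 2, and within wild type spermatocytes Cd81, the Leydig list and the Sertoli list are highest on array 1 and lowest on array 3.

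The comparison of genotypes asked whether the level of imprinted genes differs in germ cells of males with 1 Dnmt3L copy. By the paper's account the Dnmt3l probe lies in the last exon. Alternative transcripts from a second promoter, thought to be non-coding, share that exon with the full-length transcript. The paper found no lower level in heterozygous germ cells with this probe. The probe therefore does not check the genotype labels. It was at 8.10 to 8.27 in wild type and 8.66 to 8.82 in heterozygous spermatocytes, and at 10.19 to 10.91 and 9.78 to 10.96 in the spermatids. In spermatocytes none of the 30 genes was called between heterozygous and wild type males (0.197% of all genes were called), and none had an unadjusted p under 0.05. In spermatids none was called either (0.409% of all genes), and 1, Trappc9, had an unadjusted p under 0.05. With shares this small among all genes, a count of 0 among 30 does not set the imprinted genes apart. The median differences were -0.02 in spermatocytes and -0.04 in spermatids, against 0.01 and 0.01 over all genes. The arrays did not overlap for 7 of 30 genes in spermatocytes (23.3%, against 23.5% of all genes) and for 2 in spermatids (6.67%, against 7.86%). The genotype difference differed between the cell types for none of the 30 genes, at an adjusted or an unadjusted p under 0.05, and for 0% of all genes at an adjusted p.

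In spermatocytes the 3 smallest p-values belonged to Impact, Cdkn1c and Trappc9. Impact, an inhibitor of the translational kinase GCN2, was at 7.28, 7.39 and 7.40 in wild type and 6.94 and 7.13 in heterozygous spermatocytes, a difference of -0.32 with a standard error of 0.15 (adjusted p = 0.28). Its second kept probe went the other way, from 6.91 to 7.05 in wild type and 7.06 to 7.12 in heterozygous spermatocytes (0.10, standard error 0.07, adjusted p = 0.568), and with both averaged the difference was -0.11. Cdkn1c was at 7.98, 7.96 and 7.71 against 8.11 and 8.19, a difference of 0.27 with a standard error of 0.16 (adjusted p = 0.406). Trappc9 differed by 0.15 with a standard error of 0.09 (adjusted p = 0.437), and by 0.03 with all its probes averaged. The groups did not overlap for the brightest probes of these 3 genes, and no difference was called. Over all 30 genes the differences in spermatocytes ran from -0.56 for Cd81 to 0.27 for Cdkn1c.

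In spermatids they belonged to Trappc9, Inpp5f and Slc22a18. Trappc9 was 0.25 higher in heterozygous spermatids with a standard error of 0.08 (adjusted p = 0.0909), and all 3 heterozygous arrays lay above all 3 wild type arrays. With all probes averaged the difference was 0.10 for Trappc9, -0.08 for Inpp5f and 0.23 for Slc22a18. By its brightest probe Inpp5f differed by -0.36 with a standard error of 0.17 (adjusted p = 0.254), with overlapping arrays. Slc22a18 was at 7.68, 7.68 and 7.22 in wild type and 8.00, 7.54 and 8.13 in heterozygous spermatids, a difference of 0.37 with a standard error of 0.18 (adjusted p = 0.275). Over the 30 genes the differences in spermatids ran from -0.81 for Cd81 to 0.37 for Slc22a18.

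For the paternally methylated loci the genotype differences in spermatocytes were 0.16 for Rasgrf1 (standard error 0.23, adjusted p = 0.816), 0.09 for Igf2 (0.36, 0.947), 0.06 for Dlk1 (0.10, 0.836) and 0.08 for Dio3 (0.09, 0.735). In spermatids they were -0.32 for Rasgrf1 (0.20, 0.459), -0.54 for Igf2 (0.32, 0.411), 0.04 for Dlk1 (0.09, 0.885) and -0.06 for Dio3 (0.08, 0.796). All 4 genes overlapped between genotypes in both cell types.

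The count of 0 in spermatids changed with the spermatid arrays numbered 2. Without both of them 5 of 30 genes were called (16.7%, against 6.09% of all genes), on 2 arrays per group. Slc22a18 was then higher in heterozygous spermatids (0.62, adjusted p = 0.0369), and Ndn (-0.92, 0.0138), Igf2 (-0.91, 0.0331), Grb10 (-0.51, 0.0085) and Peg3 (-0.38, 0.0432) were lower. On these arrays the second kept Slc22a18 probe was also higher in heterozygous males, at 6.91 and 6.96 against 6.88 and 6.78. The second kept probes of Grb10 (7.13 and 7.04 against 7.11 and 7.20) and Peg3 (6.69 and 6.86 against 6.81 and 6.75) overlapped between genotypes. Without wild type spermatid array 2 alone Igf2 and Ndn were called (2.4% of all genes), and without heterozygous spermatid array 2 alone Slc22a18, Grb10 and Peg3 (4.94% of all genes). Several marker lists moved with Igf2 and Ndn. Wild type spermatid arrays 1 and 3 had the macrophage list at 9.91 and 10.36, and heterozygous arrays 1 and 3 at 9.18 and 9.14. On the same arrays the Leydig list was at 8.15 and 9.31 against 7.86 and 7.81. The peritubular list was at 9.33 and 9.43 against 8.99 and 9.26, and the Sertoli list at 8.36 and 8.86 against 7.69 and 8.49. The endothelium list was at 7.50 and 7.41 against 7.42 and 7.66, and the round spermatid list at 12.26 and 12.51 against 12.45 and 12.38. The part of somatic cells in the differences of Igf2 and Ndn was not tested.

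**Figure D5:**
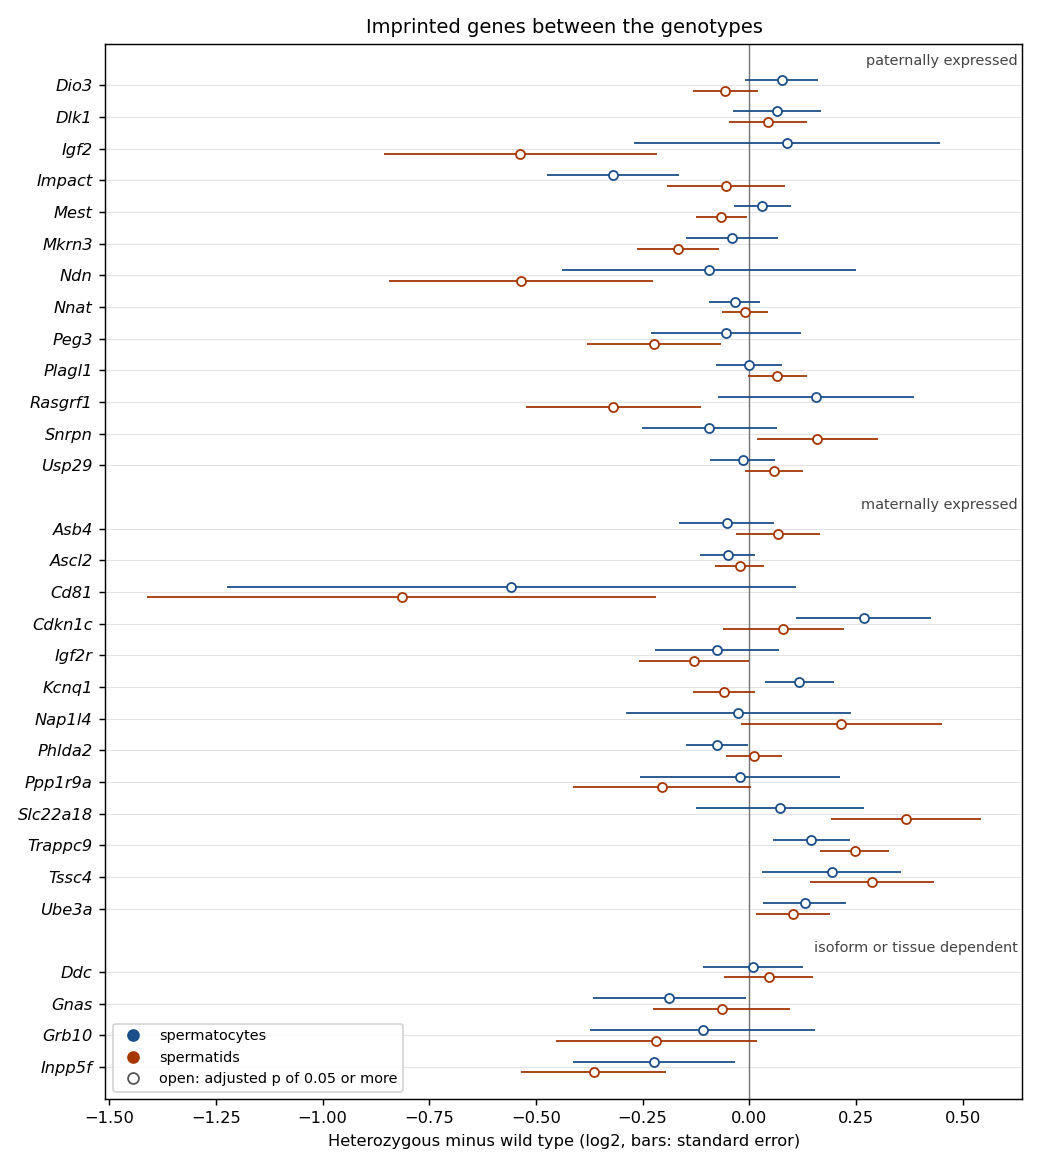
Difference between heterozygous and wild type males for the 30 tested imprinted genes (heterozygous minus wild type, log2 scale, x axis) in spermatocytes and in spermatids; bars are standard errors of the limma fit, and every point is open because no adjusted p was under 0.05. Most points lie within 0.3 of 0, and the widest bars are those of Cd81, Igf2 and Ndn.

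A second list held 36 further genes reported as imprinted in the mouse, of which 21 were tested. In wild type males 2 were higher in spermatids and 4 lower (28.6% called, against 31.1% of all genes), and in heterozygous males 2 were higher and 5 lower (33.3%, against 21.5%). Atp10a, a phospholipid-transporting ATPase near the Snrpn domain, rose by 2.23 in wild type (adjusted p = 0.00196) and 1.87 in heterozygous males (0.00593). Kcnq1ot1, the non-coding transcript that silences the Kcnq1 domain in cis on the paternal copy, rose by 1.67 (adjusted p = 0.00407) and 1.34 (0.0147). Pon2, a lactonase, fell by 0.37 (adjusted p = 0.00923) and 0.52 (0.00385), and Cobl, an actin nucleator, by 0.46 (0.00956) and 0.41 (0.0234). Gab1, a docking protein of receptor tyrosine kinases, fell by 0.95 (adjusted p = 0.0107) and 0.84 (0.0267), and Commd1, a regulator of copper export, by 0.55 (0.0325) and 0.56 (0.0463). None was called between genotypes, against 0.197% of all genes in spermatocytes and 0.409% in spermatids.

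Of 19 genes that set, keep or read imprints, 13 were tested. In wild type males 1 was called higher in spermatids and 2 lower (23.1%, against 31.1% of all genes). In heterozygous males 1 was higher and 3 were lower (30.8%, against 21.5%). Dnmt3l itself was the only one called higher, by 2.44 in wild type males (adjusted p = 0.00171) and 1.73 in heterozygous males (0.0103). Its probe also detects the alternative transcripts, so the part of the full-length transcript in this rise is not known. It was at 8.27, 8.17 and 8.10 in wild type and 8.82 and 8.66 in heterozygous spermatocytes, and at 10.91, 10.19 and 10.75 in wild type and 10.66, 9.78 and 10.96 in heterozygous spermatids. Spermatids were higher throughout. The maintenance methyltransferase gene Dnmt1 fell by 0.88 in wild type males (adjusted p = 0.00445) and fell by 1.05 in heterozygous males (0.00347), and its partner Uhrf1, which binds hemimethylated DNA, fell by 1.14 (0.00392) and 0.84 (0.021). Ctcf, whose protein binds the unmethylated H19-Igf2 control region, fell by 0.52 in heterozygous males (adjusted p = 0.0137) and had a change of -0.31 in wild type males (0.0623). The other 9, Dnmt3b, Trim28, Setdb1 and Zfp445 among them, were not called between cell types. Between genotypes none of the 13 was called, against 0.197% of all genes in spermatocytes and 0.409% in spermatids.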

How the data were processed

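RNA of 11 preparations of elutriated mouse germ cells was hybridised to Illumina WG-6 version 1.1 BeadChips. The authors exported probe profiles from BeadStudio and used lumi to subtract each array's mean negative control, stabilise the variance and quantile normalise (no version is given in the sources used here); the deposited values are log2 levels, 46643 probes on 11 arrays, whose sorted columns differed by at most 0.00873. A bead-level table was also deposited, but its 22 sample columns match no label and were not used, so the depth per array is unknown and the number of arrays limits the precision.

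Probes were named through the platform annotation and the RefSeq table (32794 with 1 symbol, 55 with several, 13794 with none); the older symbol 2610311E24Rik was counted as Plagl1. The dimmest 40% of probes by mean level were dropped, which kept 27986 probes of 14181 genes. Group means over 11 arrays were fitted with limma 3.58.1 in R 4.3.3 (7 residual degrees of freedom), with Benjamini-Hochberg adjustment over kept probes and 4 contrasts together at 0.05; the difference of the genotype differences was adjusted by itself. The fit was tested on simulated data. P-values measure the spread between preparations, each of 10 mice. Per-array values are given for genes called between cell types, for the paternally methylated loci and for the 3 smallest p-values of each genotype contrast, and for Ndn and Cd81, which were chosen after their values were seen. The members and lists were chosen with earlier results of these data known. Alternatives were other filters, adjustments, fits, weights, a replicate block, the mean of all probes, rescaled arrays, each array left out and the spermatid arrays numbered 2 left out. Promoter windows came from RefSeq (GRCm38.p6).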

Additional observations from a re-analysis of the deposited data

How the results depend on the processing

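The 6 calls of 30 in wild type males became 11 with array weights (36.7%, against 46.4% of all genes) and 10 without both spermatid arrays numbered 2 (33.3%, against 40.3%), so the share of all genes rose as well. With 1 array at a time left out they were 3 to 7 (18.3 to 37.2% of all genes), with 3 without wild type spermatocyte array 2 or wild type spermatid array 1. The 7 calls in heterozygous males became 4 of the same 30 genes without a filter. All 19390 genes, dim ones included, then had 12.4% called, so the 2 shares are not of like sets. The 7 calls became 1 with only the 2 groups compared (3.33%, against 10.5% of all genes) and 3 with the mean of all probes (13.6% of 22 genes tested, against 27.3%). They became 3 with the replicate block (10%, against 18%), 9 with array weights (30%, against 33.9%), 9 without both arrays numbered 2 (30%, against 33.1%) and 1 to 8 with 1 array left out (6.89 to 31.2% of all genes). In spermatids the 0 calls between genotypes became 1 with array weights (Trappc9, 3.33%, against 2.89% of all genes), 5 without both arrays numbered 2 (16.7%, against 6.09%), and 0 to 3 with 1 array left out (0.0846 to 4.94% of all genes); the calls in spermatocytes and of the difference between cell types stayed at 0 in every alternative run. The cause of these shifts was not tested. Whether numbers 1 to 3 pair the samples was not tested, since deviations from the mean of 2 or 3 arrays are tied to one another. Of 15 same-numbered pairs 4 had deviations correlated over 0.1 (r from -0.256 to 0.329), and in 5 the same number was the best match. With the replicate block the counts were 6 in wild type, 3 in heterozygous males and 0 between genotypes. Changes near 0 turned sign. In heterozygous males Dlk1 became 0.085 with the mean of all probes, 0.0088 without both arrays numbered 2 and -0.066 to 0.046 with 1 array left out, and Dio3 -0.106 to 0.0010 with 1 array left out. In wild type males Dlk1 became 0.191 with the mean of all probes, -0.075 with array weights and -0.103 to 0.072 with 1 array left out. Background correction from bead signals (neqc) was not run, since the columns of that table could not be matched to samples.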
